A study of Mus musculus with 10 samples.

Results

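The lysosomal genes described here are 40 genes named by symbol in the count table, out of the 56748 genes it lists. They were chosen by function and by name, with earlier results of these data known. They comprise 10 cathepsins and related peptidases, 11 other hydrolases and their activators, 4 membrane proteins, 3 transcription factors of the TFEB family and 12 subunits or accessory proteins of the V-ATPase. Liver RNA was sequenced in 5 libraries labelled ACSS2-HKO (HKO below) and 5 labelled ACSS2-flox (flox). Per the design text, the study asked what ACSS2, an enzyme that makes acetyl-CoA from acetate, does in metabolic dysfunction-associated steatohepatitis, by deleting it in liver cells. The mice of both groups were on a diet high in fat and fructose for 4 months, and no library from mice on another diet was analysed here. The sources used here do not name the driver of the deletion, sex, age, strain or batch. They do not state that each library is a separate animal either, so p-values measure only the spread between these libraries, which may be technical.

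Lysosomes are acidic compartments in which hydrolases break down proteins, glycans and lipids taken up by endocytosis or delivered by autophagy. The V-ATPase pumps protons into them, the LAMP proteins coat their inner membrane face, and TFEB, TFE3 and MITF switch on many lysosomal genes through short DNA elements with an E-box core. Hepatocytes and liver macrophages both hold many lysosomes, and cathepsin S is known as an enzyme of antigen-presenting cells.

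Library totals ran from 15413648 to 19275358 counts in HKO and from 16933436 to 17196774 in flox, and the 40 genes took 0.452% to 0.490% of the counts in HKO and 0.485% to 0.668% in flox. Levels are CPM, counts scaled to a common library size with TMM factors, and 3 counts were worth 0.156 to 0.195 CPM before that scaling. Acss2, the targeted gene, had 52.8, 59.0, 43.8, 40.2 and 51.4 CPM in HKO libraries 1 to 5 and 73.2, 86.9, 56.5, 128.8 and 58.6 CPM in flox libraries 1 to 5, so the groups overlapped. Acss2 was lower in HKO by estimate and missed the threshold (log2 fold change, HKO over flox, -0.71 ± 0.21 SE, edgeR adjusted p = 0.0858). Gss lies across it on the opposite strand, with 92.4% as many counts. The deleted part of Acss2 is not named, so a total over the gene checks the labels only weakly.

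Of the 40 genes, 39 passed the filter on low counts and 4 were lower in HKO livers, the cathepsin S gene Ctss, the legumain gene Lgmn, the hexosaminidase gene Hexa and the cathepsin B gene Ctsb. None was higher by edgeR (0 at an unadjusted p under 0.05, and 0 by DESeq2). The 12 V-ATPase genes, the 4 membrane protein genes and the 3 TFEB family genes held 0 calls in either direction (0 at an unadjusted p under 0.05, and 0 by DESeq2). A call is an adjusted p under 0.05 in edgeR's quasi-likelihood test over 14068 tested genes, of which 3.07% were lower and 0.917% higher in HKO (3.99% in all). The median log2 fold change of the 39 genes was -0.04, against 0.01 over all tested genes. At an unadjusted p under 0.05, 10 of the 39 were lower and 0 higher, against 10.8% lower and 6.07% higher among all tested genes. The intervals of the other 29 included no change.

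**Figure D1:**
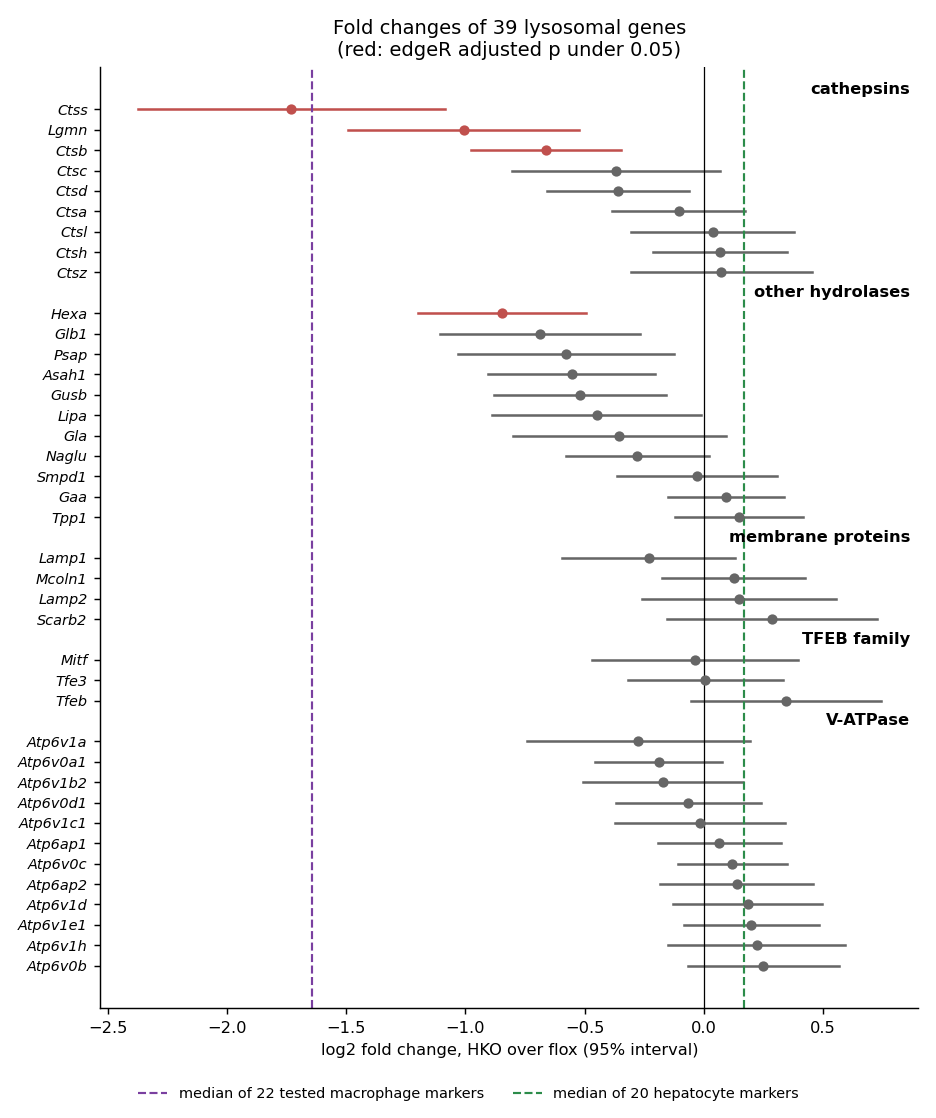
Log2 fold change of HKO over flox on the x axis for each tested gene (points) with its 95% interval (lines), grouped by role, with dashed lines at the medians of the macrophage markers (-1.64) and hepatocyte markers (0.17). The 4 called genes are red, and the interval of Ctss alone reaches the macrophage line.

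Most macrophage markers were lower in HKO, while most of the lysosomal genes were not called. Of 23 macrophage and Kupffer cell markers, none of them a lysosomal gene of the sets counted here, 22 were tested, 19 were lower in HKO and 0 were higher (0 higher at an unadjusted p under 0.05, and 0 by DESeq2), with a median log2 fold change of -1.64. Their summed level was 142.5 to 296.4 CPM in HKO libraries and 387.3 to 937.1 CPM in flox libraries, and no marker was at 0 in all libraries. Aif1, the macrophage gene in the study's title, averaged 1.23 ± 0.688 CPM in HKO and 5.51 ± 1.65 CPM in flox (SD, n = 5 each; edgeR adjusted p = 0.00621). Of 20 hepatocyte markers 0 passed the edgeR test in either direction, with 2 lower and 1 higher at an unadjusted p under 0.05 and 1 higher by DESeq2, and their median was 0.17. The hepatocyte sum was 142220 to 182678 CPM in HKO and 115924 to 175517 CPM in flox. In whole liver, fewer cells of a type and less RNA per cell cannot be told apart, and the part of macrophages in the lysosomal results was not tested.

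Markers of other cell types had fewer edgeR calls, and the lists were not tested against each other. Among tested markers, edgeR called 1 of 10 sinusoidal endothelial and 1 of 7 T, NK and B cell markers lower. At an unadjusted p under 0.05 these lists had 2 and 1 lower, and by DESeq2 1 and 1. Summed endothelial levels were 104.9 to 231.5 CPM in HKO and 147.5 to 229.9 CPM in flox, lymphocyte sums were 28.6 to 44.3 CPM in HKO and 36.7 to 146.8 CPM in flox, and neutrophil sums were 3.25 to 11.8 CPM in HKO and 5.91 to 20.1 CPM in flox. The median log2 fold change was -1.18 over the 3 tested neutrophil markers. It was also below 0 in the other lists, at -0.40 for endothelial, -0.43 for cholangiocyte and -0.36 for lymphocyte markers. Lipid-associated macrophage and stellate markers had medians of -0.28 and -0.17. All 10 tested endothelial markers had estimates below 0. By edgeR 0 of 10 stellate, 0 of 6 cholangiocyte, 0 of 3 neutrophil and 0 of 6 lipid-associated macrophage markers were called. At an unadjusted p under 0.05 these lists had 4, 0, 2 and 2 lower, and by DESeq2 0, 0, 3 and 2. Stellate sums were 130.9 to 207.0 CPM in HKO and 150.6 to 323.3 CPM in flox.

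Flox library 5 stood apart in several cell types. The collagen genes Col1a1 and Col3a1 had 1.16 to 3.14 and 5.78 to 12.8 CPM in HKO libraries, and 35.9 and 61.9 CPM in flox library 5, where the other flox libraries reached 5.97 and 15.8 CPM. Gpnmb, a lipid-associated macrophage gene too low to test, had at most 0.257 CPM in HKO libraries, 12.2 CPM in flox library 5 and at most 0.491 CPM in the other flox libraries. Flox library 5 also had the highest macrophage score (1.58) and the lowest hepatocyte score (-0.41), each a mean of centred log2 CPM over the tested markers. Without it, 3 lysosomal genes of the set were lower, Ctss, Lgmn and Hexa, and 361 genes were called in all. The part of these cell types in the lysosomal results was not tested.

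Sequence around the transcription start was available for 34 of the 40 genes, in RefSeq windows on GRCm38.p6 of 250 bases before to 50 bases after the start, with up to 3 starts a gene. The E-box core CACGTG, which reads the same on both strands, stood in at least 1 window of 13 of the 34 genes (38.2%), against 8.09% of the 27025 genes in the table. The longer form TCACGTGA, which contains the core and is the form closest to the element described for TFEB, stood in 6 (17.6%), against 1.12% of all genes. The ETS core GAGGAAGT, a form bound by the macrophage factor PU.1 and searched on both strands, stood in 4 (11.8%), against 3.69%. These matches are letters in a window and were not tested as sites. The genes of the table were not matched to the lysosomal genes in liver expression or base content. For 37 of 44 windows, bases after the start were found in a transcript of the same gene.

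The stretches below run from 120 bases before the start to 10 bases after it, 5′ to 3′ along the gene, with E-box and ETS letters in capitals. They are shown because Lamp1, Mcoln1, Ctsd and Atp6v0d1 carry the E-box and were not called, Lgmn carries the same E-box core and was lower in HKO, and Ctss was lower in HKO and carries the ETS letters.
Lamp1 (chr8:13159041-13159170, plus strand): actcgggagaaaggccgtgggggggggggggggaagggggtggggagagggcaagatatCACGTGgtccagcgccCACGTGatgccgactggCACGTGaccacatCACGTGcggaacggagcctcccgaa
Mcoln1 (chr8:3500399-3500528, plus strand): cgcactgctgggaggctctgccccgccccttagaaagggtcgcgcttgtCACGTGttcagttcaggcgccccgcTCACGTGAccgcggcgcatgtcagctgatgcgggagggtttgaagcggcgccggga
Ctsd (chr7:142387818-142387947, minus strand): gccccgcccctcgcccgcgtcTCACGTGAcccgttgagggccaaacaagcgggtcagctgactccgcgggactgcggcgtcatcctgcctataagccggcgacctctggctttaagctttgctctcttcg
Atp6v0d1 (chr8:105566055-105566184, minus strand): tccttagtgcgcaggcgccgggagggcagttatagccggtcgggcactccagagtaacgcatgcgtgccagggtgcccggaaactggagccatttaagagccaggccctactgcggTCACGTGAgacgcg
Lgmn, the second of its 2 listed starts (chr12:102439083-102439212, minus strand): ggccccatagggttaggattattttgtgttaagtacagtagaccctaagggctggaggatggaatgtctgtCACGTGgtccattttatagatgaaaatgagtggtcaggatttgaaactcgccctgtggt
Ctss (chr3:95526666-95526795, plus strand): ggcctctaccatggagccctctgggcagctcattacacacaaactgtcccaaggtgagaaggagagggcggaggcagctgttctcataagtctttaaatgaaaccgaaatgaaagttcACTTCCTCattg

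Lamp1 holds 4 E-boxes in this stretch, the most of any of the genes, at 61, 45, 28 and 15 bases before the start. In Atp6v0d1 the long E-box begins 4 bases before the start and crosses it, and in Ctsd it begins 99 bases before it. The E-box of Lgmn lies 49 bases before a start that is not its first. The Ctss stretch holds no E-box, and its ETS letters, on the minus strand, begin 2 bases before the start and cross it. Of the 3 called genes with a window, 1 held an E-box, 0 the long form and 1 the ETS letters, while of 30 tested genes that were not called 12 held an E-box, 6 the long form and 3 the ETS letters. Hexa held no match, which says only that these letters are not in its window.

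**Figure D2:**
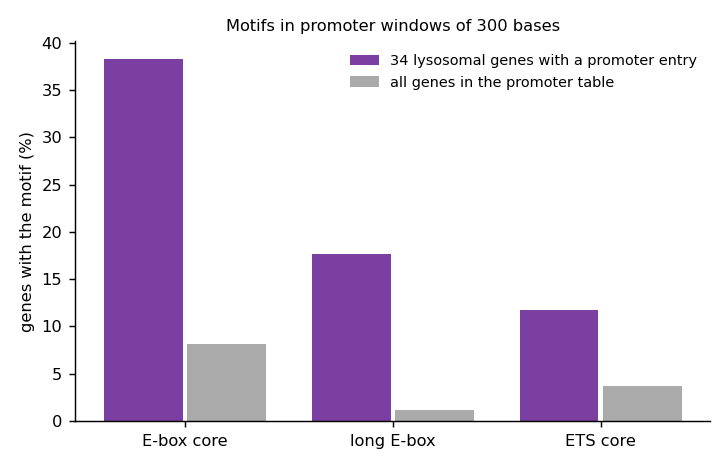
Percent of genes (y axis) with at least 1 match in a promoter window, for 34 lysosomal genes (purple) and all genes in the promoter table (grey). The E-box core stood in 38.2% of the lysosomal genes and 8.09% of all genes.

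Among the cathepsins, 3 of 9 tested genes were lower in HKO, and 0 were higher (0 at an unadjusted p under 0.05, and 0 by DESeq2), with a median log2 fold change of -0.36. Ctss (ENSMUSG00000038642, chromosome 3) encodes cathepsin S, which trims the invariant chain of MHC class II. It had 11.3, 10.3, 15.7, 14.6 and 9.59 CPM in HKO libraries 1 to 5 and 28.9, 27.9, 25.2, 41.4 and 80.8 CPM in flox libraries 1 to 5. Every HKO library lay below every flox library, and flox library 5 was far above the rest. Ctss was 3.32-fold lower in HKO (log2 fold change -1.73 ± 0.30, edgeR adjusted p = 0.00978), on 978 counts in HKO and 3718 in flox. Without flox library 5 the log2 fold change was -1.32 (edgeR adjusted p = 0.00701).

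Lgmn (ENSMUSG00000021190, chromosome 12) encodes legumain, which cuts after asparagine and activates other lysosomal proteases. It had 26.4, 24.3, 28.9, 28.5 and 22.6 CPM in HKO and 43.4, 41.3, 31.3, 64.1 and 82.8 CPM in flox. The groups did not overlap, flox libraries 4 and 5 were highest, and the lowest flox library, library 3, lay close above the highest HKO library. Lgmn was 2.01-fold lower in HKO (log2 fold change -1.01 ± 0.23, edgeR adjusted p = 0.0238). The call was lost without HKO library 1, 2, 4 or 5 (edgeR adjusted p = 0.0565, 0.0551, 0.0509 and 0.0606), and without flox library 5 the log2 fold change was -0.78 (edgeR adjusted p = 0.0480).

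Ctsb (ENSMUSG00000021939, chromosome 14) encodes cathepsin B, an abundant cysteine protease of hepatocytes and macrophages. It had 458.4, 396.7, 464.9, 370.2 and 457.2 CPM in HKO and 648.0, 799.3, 578.8, 596.0 and 772.7 CPM in flox. All HKO libraries lay below all flox libraries. Ctsb was 1.58-fold lower (log2 fold change -0.66 ± 0.15, edgeR adjusted p = 0.0231), a smaller estimate than that of Ctss. Per kilobase, the level of Ctsb was 71.0 CPM in HKO and 112.2 CPM in flox, and that of Ctss 9.07 CPM in HKO and 30.1 CPM in flox. The call was lost in 6 of the 10 fits that left out 1 library, HKO 1, 2, 4 or 5 or flox 2 or 5 (edgeR adjusted p from 0.0501 to 0.0629). Fdft1 overlaps it on the opposite strand with 11.6% as many counts, and whether counting used strand is not stated.

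The remaining cathepsins were not called. The aspartic protease gene Ctsd had 143.6 to 178.1 CPM in HKO and 174.6 to 254.6 CPM in flox, overlapping through flox library 3 (log2 fold change -0.36 ± 0.14, edgeR adjusted p = 0.187). Ctsz, a carboxypeptidase gene, had 170.6 to 223.3 CPM in HKO and 108.6 to 215.0 CPM in flox (log2 fold change 0.07 ± 0.18), and Nelfcd overlaps it on the opposite strand with 15.9% as many counts. Ctsl, the cysteine protease closest to Ctsb in level per kilobase in HKO, had a log2 fold change of 0.04 ± 0.16, with 420.9 to 485.8 CPM in HKO and 369.8 to 607.1 CPM in flox. Its 95% interval, -0.30 to 0.38, did not reach the estimate of -0.66 for Ctsb, though the difference between the genes was not tested.

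Ctsc, Ctsa and Ctsh, an aminodipeptidase, a carboxypeptidase and an aminopeptidase, had log2 fold changes of -0.37, -0.11 and 0.07. Pltp overlaps Ctsa on the opposite strand with 27.3% as many counts. Ctsk, the collagen-cutting protease of osteoclasts, was too low to test, with 40 counts in HKO and 55 in flox.

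**Figure D3:**
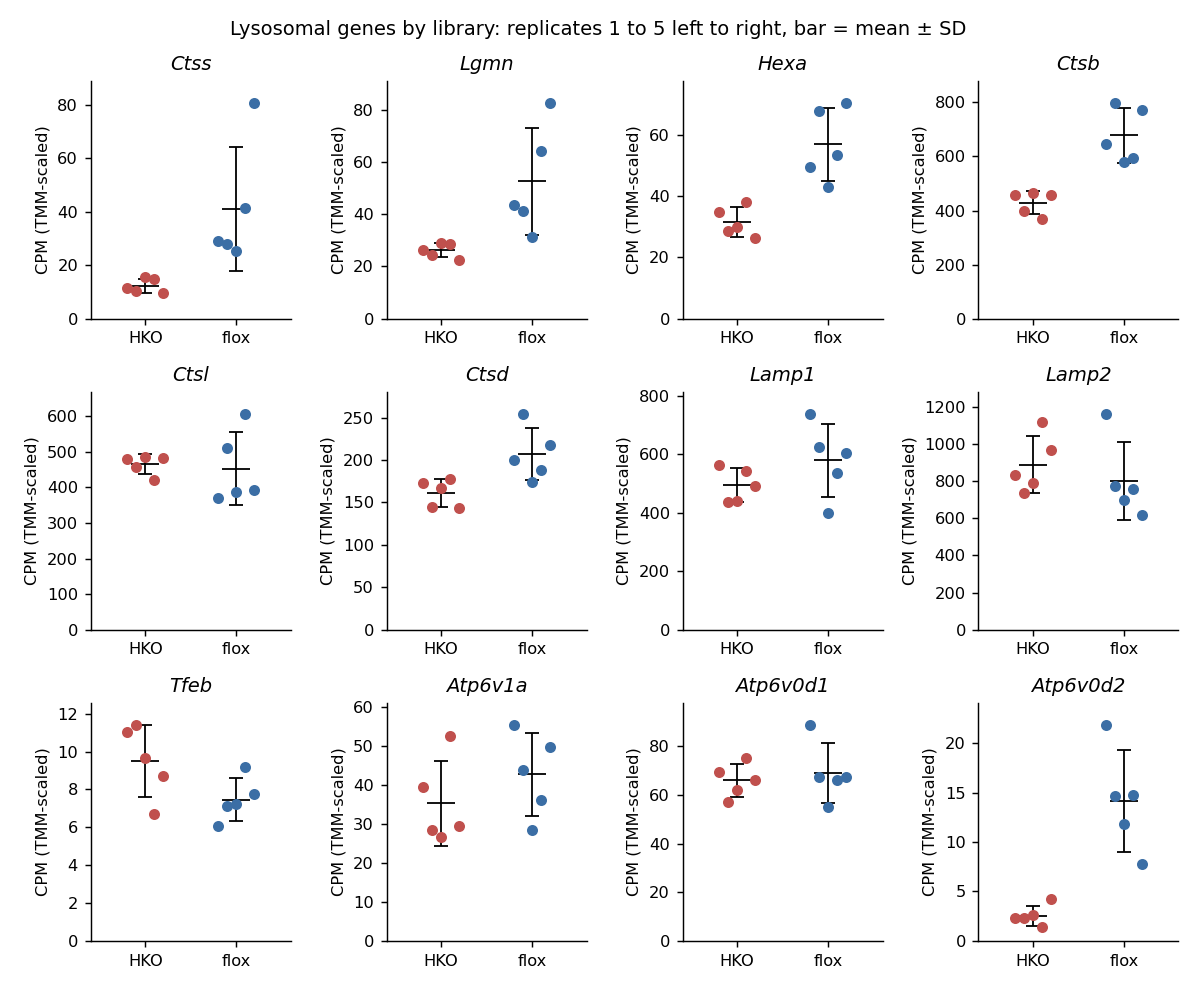
CPM on the y axis, from 0, for 11 lysosomal genes and the V-ATPase isoform gene Atp6v0d2, in HKO (red, left) and flox (blue, right) libraries, replicates 1 to 5 left to right, with the mean and SD. Ctss, Lgmn, Hexa, Ctsb and Atp6v0d2 do not overlap between groups, while the others do.

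Of the 11 other hydrolases and activators, 1 was lower and 0 were higher in HKO (0 higher at an unadjusted p under 0.05, and 0 by DESeq2), and the median log2 fold change was -0.45. Hexa (ENSMUSG00000025232, chromosome 9) encodes the alpha subunit of beta-hexosaminidase, which removes a sugar from the ganglioside GM2. It had 34.8, 28.7, 30.1, 38.2 and 26.4 CPM in HKO and 49.4, 67.9, 43.1, 53.6 and 70.6 CPM in flox. The groups did not overlap, with flox libraries 2 and 5 highest. Hexa was 1.80-fold lower (log2 fold change -0.85 ± 0.16, edgeR adjusted p = 0.0142), and kept an edgeR or DESeq2 adjusted p between 0.000494 and 0.0387 in all 17 alternatives.

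A further 5 hydrolase genes were lower at an unadjusted p under 0.05 and missed the adjusted threshold. Glb1, which encodes beta-galactosidase, had 4.37 to 8.30 CPM in HKO and 9.73 to 14.2 CPM in flox, and was the only other tested gene of the set whose groups did not overlap. It missed the threshold in edgeR (log2 fold change -0.69 ± 0.20, edgeR adjusted p = 0.0704) and passed in DESeq2 (adjusted p = 0.0220), and Tmppe overlaps it on the same strand with 19.7% as many counts. With it, 5 of 39 genes had all HKO libraries below all flox libraries, against 3.46% of all tested genes, and 0 had them above, against 1.91%.

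Psap, the precursor of the saposins that help hydrolases reach their lipids, was the most abundant hydrolase-group gene per kilobase. It had 376.6, 307.6, 272.6, 362.8 and 315.4 CPM in HKO and 446.9, 628.8, 325.1, 350.9 and 685.8 CPM in flox. The groups overlapped in flox libraries 3 and 4, and flox libraries 2 and 5 were highest (log2 fold change -0.58 ± 0.21, edgeR adjusted p = 0.163). Lipa, which encodes the lysosomal acid lipase of cholesteryl esters and triglycerides, had 138.6 to 198.9 CPM in HKO and 149.9 to 282.5 CPM in flox (log2 fold change -0.45 ± 0.20, edgeR adjusted p = 0.284).

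Asah1, the acid ceramidase gene, and Gusb, the beta-glucuronidase gene, had log2 fold changes of -0.55 ± 0.16 and -0.52 ± 0.17 (edgeR adjusted p = 0.0807 and 0.112). Both passed without flox library 3 (edgeR adjusted p = 0.0177 and 0.0189), the flox library with the lowest level of each. The other 5 genes, Gla, Naglu, Smpd1, Gaa and Tpp1, which act on galactosyl lipids, heparan sulfate, sphingomyelin, glycogen and peptides, ran from -0.35 to 0.15. Gaa stayed within 88.2 to 93.3 CPM in HKO and 78.3 to 96.6 CPM in flox.

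**Figure D4:**
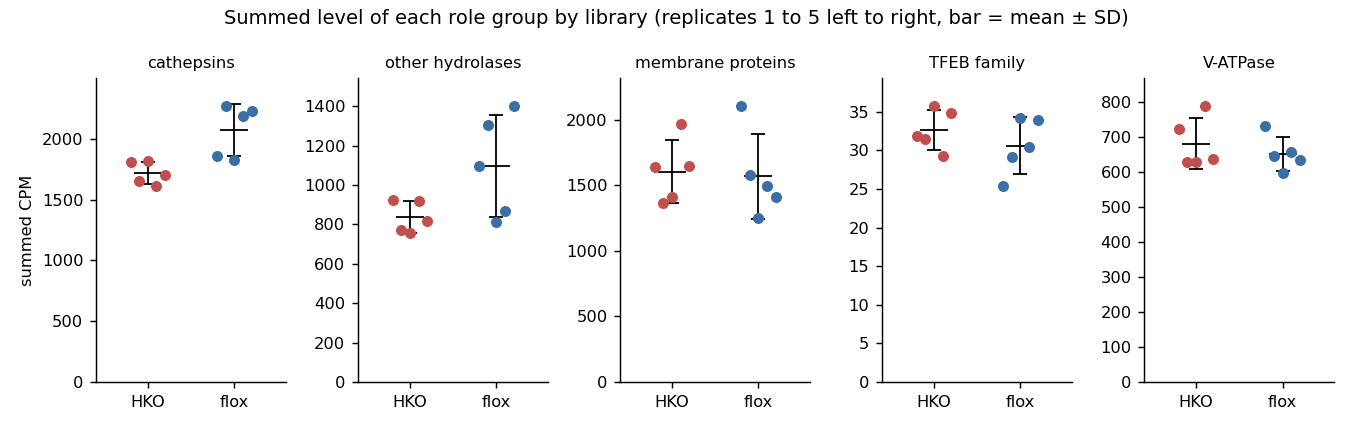
Summed CPM on the y axis, from 0, of each role group in HKO (red, left) and flox (blue, right) libraries, replicates 1 to 5 left to right, with the mean and SD. The cathepsin sums, 1612 to 1819 in HKO and 1822 to 2269 in flox, are the only ones that do not overlap, and they nearly meet.

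Summed over each role group, cathepsins stood at 1719 ± 93.2 CPM in HKO and 2072 ± 215.3 CPM in flox (mean ± SD, n = 5 each). The other hydrolases stood at 839.1 ± 80.5 CPM in HKO and 1098 ± 259.3 CPM in flox, with flox libraries 3 and 4 at 814.1 and 869.7 CPM, inside the HKO range. The membrane proteins stood at 1604 ± 240.0 CPM in HKO and 1567 ± 324.3 CPM in flox, and the V-ATPase genes at 680.9 ± 72.0 CPM in HKO and 652.5 ± 48.8 CPM in flox. These sums are descriptions and were not tested, and the most abundant genes dominate them. The cathepsin sums of the groups nearly met, at 1818.7 CPM in HKO library 3 and 1822.0 CPM in flox library 3. Ctsb, called lower by itself, averaged 429.5 CPM of the HKO sum and 679.0 CPM of the flox sum. The narrow gap therefore does not show a fall across the cathepsins. The coefficient of variation between libraries had a median of 13.0% in HKO and 16.7% in flox over the 39 genes, and 28 of them had the larger SD in flox.

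The membrane proteins were not called. Lamp1, the most abundant gene of the set per kilobase in both groups, had 562.3, 436.3, 440.7, 542.5 and 493.6 CPM in HKO and 739.3, 625.5, 400.5, 535.3 and 603.9 CPM in flox, with overlapping groups (log2 fold change -0.23 ± 0.17, edgeR adjusted p = 0.545). Lamp2, which also serves chaperone-mediated autophagy, had a log2 fold change of 0.15 ± 0.19 and 733.6 to 1115 CPM in HKO and 614.7 to 1161 CPM in flox. Scarb2, the sorting receptor of glucocerebrosidase, had 136.0 to 277.1 CPM in HKO and 111.4 to 169.0 CPM in flox (log2 fold change 0.29 ± 0.21, edgeR adjusted p = 0.535), with HKO libraries 1 and 4 highest. Mcoln1, the calcium channel gene, had a log2 fold change of 0.13 ± 0.14.

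The TFEB family genes were low in level and overlapped between groups. Tfeb had 11.02, 11.4, 9.65, 6.68 and 8.71 CPM in HKO and 6.06, 7.13, 7.21, 9.17 and 7.76 CPM in flox (log2 fold change 0.35 ± 0.19, edgeR adjusted p = 0.378), and this was the highest estimate among the 39 genes. HKO libraries 1 to 3 lay above all flox libraries and HKO library 4 below most of them. Tfe3 averaged 18.8 ± 2.61 CPM in HKO and 18.7 ± 3.18 CPM in flox, and Mitf 4.30 ± 0.449 CPM in HKO and 4.41 ± 0.839 CPM in flox (SD, n = 5 each). The 95% intervals were -0.05 to 0.75 for Tfeb, -0.32 to 0.33 for Tfe3 and -0.47 to 0.39 for Mitf. TFEB activity is set largely by phosphorylation and entry into the nucleus, which transcript levels do not show.

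The 12 V-ATPase genes stayed close to no change. Their log2 fold changes ran from -0.27 for Atp6v1a, the catalytic A subunit, to 0.25 for Atp6v0b, a subunit of the membrane ring, and the widest bounds of their 95% intervals were -0.74 and 0.59. Atp6v0b had the smallest p of them, with 50.8 to 61.8 CPM in HKO and 32.6 to 55.5 CPM in flox (log2 fold change 0.25 ± 0.15, edgeR adjusted p = 0.430). Atp6v0d1, the d1 subunit that joins the membrane ring to the central stalk, had 69.2, 57.0, 61.9, 75.3 and 66.1 CPM in HKO and 88.7, 67.5, 55.1, 66.1 and 67.2 CPM in flox (log2 fold change -0.06 ± 0.14, edgeR adjusted p = 0.876).

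The other 9 pump genes of the set were not called. In the catalytic head, Atp6v1b2 had a log2 fold change of -0.17 ± 0.16. The stalk genes Atp6v1c1, Atp6v1d and Atp6v1e1 had log2 fold changes of -0.02 ± 0.17, 0.18 ± 0.15 and 0.20 ± 0.13, and Atp6v1h, whose product couples head and membrane sector, had 0.22 ± 0.17. In the membrane sector, Atp6v0c, the ring subunit, had 73.6 to 86.1 CPM in HKO and 68.7 to 74.4 CPM in flox (log2 fold change 0.12 ± 0.11), while Atp6v0a1 had 30.7 to 44.9 CPM in HKO and 41.4 to 45.9 CPM in flox (log2 fold change -0.19 ± 0.12). The accessory genes Atp6ap1 and Atp6ap2 had log2 fold changes of 0.07 ± 0.12 and 0.14 ± 0.15. In all of them the HKO and flox ranges overlapped. HKO library 4 was the highest HKO library in 8 of the 12 genes, and flox library 1 the highest flox library in 6.

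Of the 7 tested pump genes outside the set, Atp6v0d2 was the one that passed. Atp6v0d2 (ENSMUSG00000028238, chromosome 4) encodes the d2 form of the same subunit, known from osteoclasts and macrophages. It had 2.27, 2.27, 2.64, 1.41 and 4.19 CPM in HKO and 21.8, 14.6, 11.9, 14.7 and 7.81 CPM in flox. All HKO libraries lay below all flox libraries, and here flox library 5 was the lowest flox library, unlike in Ctss and Lgmn. Atp6v0d2 was 5.50-fold lower (log2 fold change -2.46 ± 0.31, edgeR adjusted p = 0.00197). Per kilobase, its level was 0.0124 to 0.0418 of that of Atp6v0d1 in HKO libraries and 0.0767 to 0.163 in flox libraries.

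For subunit a, Tcirg1, the a3 form known from osteoclasts and immune cells, had 31.8 to 54.5 CPM in HKO and 34.8 to 62.4 CPM in flox (log2 fold change -0.27 ± 0.20, edgeR adjusted p = 0.543). Atp6v0a2, the a2 form, was not called either (log2 fold change 0.18 ± 0.19, edgeR adjusted p = 0.701). Of the 13 further pump genes listed, 0 were higher (0 at an unadjusted p under 0.05, and 0 by DESeq2). The kidney-type genes Atp6v1b1 and Atp6v1g3 and the testis-type gene Atp6v1e2 had no count in any library.

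Across the wider pathway, 8 of 106 tested genes of 117 listed were lower and 0 were higher by edgeR (4 higher at an unadjusted p under 0.05, and 0 by DESeq2), with a median log2 fold change of -0.05. Over all tested genes, 3.07% were called lower and 0.917% higher, and 6.07% were higher at an unadjusted p under 0.05. Among 35 other hydrolases and cofactors, 3 were lower, among them Ppt1 and Npc2. Ppt1, which strips palmitate from proteins, averaged 18.9 ± 1.75 CPM in HKO and 32.8 ± 5.81 CPM in flox (edgeR adjusted p = 0.0106), and Cap1 overlaps it on the opposite strand with 274.4% as many counts. Npc2, a soluble cholesterol carrier, averaged 42.6 ± 4.62 CPM in HKO and 66.3 ± 11.4 CPM in flox (edgeR adjusted p = 0.0235). Its call was lost without HKO library 2, 4 or 5 or flox library 5 (edgeR adjusted p = 0.0567, 0.0626, 0.0606 and 0.0586).

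Of 14 tested membrane proteins outside the set, 3 were lower. Cd68, a macrophage member of the LAMP family, had 2.20 to 4.23 CPM in HKO and 5.08 to 22.7 CPM in flox (log2 fold change -1.77 ± 0.35, edgeR adjusted p = 0.0154). Laptm5, a lysosomal membrane protein of blood cells, averaged 6.14 ± 1.18 CPM in HKO and 19.9 ± 14.2 CPM in flox (log2 fold change -1.70 ± 0.36, edgeR adjusted p = 0.0185). Slc36a1, a proton-coupled amino acid transporter, had 33.8, 36.1, 28.5, 28.1 and 30.9 CPM in HKO and 49.8, 46.2, 45.8, 46.2 and 52.3 CPM in flox. Its flox libraries were even, without the high library 5 seen in Cd68 and Laptm5 (log2 fold change -0.61 ± 0.12, edgeR adjusted p = 0.0142).

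Of the 5 tested cathepsin inhibitors, 1 was lower, Serpinb1a, an inhibitor of serine proteases, at 6.54 ± 0.733 CPM in HKO and 16.2 ± 6.33 CPM in flox (edgeR adjusted p = 0.0148). Sorting of lysosomal enzymes (11 tested), mTORC1 and TFEB control (17) and autophagy (17) had 0 calls by edgeR and 0 by DESeq2, with 1 lower and 0 higher, 2 lower and 1 higher, and 0 lower and 1 higher at an unadjusted p under 0.05. Their lowest p values were in Gnptab, which tags enzymes with mannose 6-phosphate (log2 fold change -0.58 ± 0.21, edgeR adjusted p = 0.151), the TFEB relative Tfec (log2 fold change -0.94 ± 0.30) and the autophagosome gene Gabarapl1 (log2 fold change 0.45 ± 0.17, edgeR adjusted p = 0.193). Tfec, which is not among the 3 TFEB family genes of the set, was low, at log2 CPM of -0.16 to 0.88 in HKO and 0.67 to 1.54 in flox.

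Set against the marker medians, Ctss was the only tested gene of the 39 whose 95% interval reached the macrophage median of -1.64, and 23 had intervals that reached the hepatocyte median of 0.17. The other 15, among them Lgmn, Hexa and Ctsb, reached neither median. The medians were taken as fixed points and the positions are descriptions, since single macrophage markers ran from -2.94 to -1.13 and hepatocyte markers from -0.48 to 0.44. The hepatocyte median also lies near the median of all tested genes, 0.01. An interval that reaches it therefore does not tell a hepatocyte gene from an unchanged gene of any cell type. The share of all tested genes that reach it was not counted. The intervals of Lgmn (-1.49 to -0.52) and Hexa (-1.20 to -0.50) took in the macrophage marker with the smallest change, Clec4f at -1.13. The interval of Atp6v1b2 ended at 0.17, just short of the hepatocyte median. By distance alone, 3 genes, Ctss, Lgmn and Hexa, were nearer to the macrophage median and 36 nearer to the hepatocyte median. In the V-ATPase, 10 of 12 intervals reached the hepatocyte median and 0 the macrophage median.

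Within the groups, agreement with macrophage transcripts was measured after each group's mean had been removed, because the macrophage score did not overlap between groups (-1.35 to -0.26 in HKO, 0.19 to 1.58 in flox). Over the 10 libraries, Lgmn had a Pearson r of 0.90 (exact permutation p = 0.00118, adjusted p = 0.0460) and a Spearman rho of 0.92 (exact permutation p = 0.00264, adjusted p = 0.103). Ctss had a Pearson r of 0.89 (exact permutation p = 0.00111, adjusted p = 0.0460) and a Spearman rho of 0.89 (exact permutation p = 0.00194, adjusted p = 0.103). The tests were two-sided, libraries were exchanged within groups, and p-values were adjusted over 78 relations of 39 genes with 2 scores. Without the 2 libraries farthest from the median score, r was 0.84 for both genes.

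Of the 78 relations, those 2 passed by Pearson and 0 by Spearman. For Hexa and Ctsb, called lower between groups, r was 0.53 and 0.21 (exact permutation p = 0.164 and 0.589, adjusted p = 0.995 for both), with rho of 0.66 and 0.32 (exact permutation p = 0.0740 and 0.437, adjusted p = 0.943 and 1.0). Without the 2 farthest libraries their r was 0.12 and 0.07. Asah1, which was not called between groups, had a higher r of 0.74 (exact permutation p = 0.0343, adjusted p = 0.799). Its rho was 0.72 (exact permutation p = 0.0574, adjusted p = 0.895), and its r was 0.57 without the 2 farthest libraries. The macrophage r was above 0 in all 9 tested cathepsins, 10 of 11 other hydrolases, 3 of 4 membrane proteins, 2 of 3 TFEB family genes and 4 of 12 V-ATPase genes. Without the 2 farthest libraries, 31 of the 39 genes kept the sign of r. The genes share the same libraries, so these signs are not independent, and the share over all tested genes was not counted. For the hepatocyte score 0 relations passed by either measure. Its only Pearson p under 0.05 was that of Atp6v1e1 (r of 0.70, exact permutation p = 0.0410, adjusted p = 0.799). Without the 2 libraries farthest in the hepatocyte score, 21 of the 39 genes kept the sign of r. The macrophage and hepatocyte scores had an r of -0.47 (exact permutation p = 0.258), and 0.58 without the 2 libraries farthest in the macrophage score. The hepatocyte relations therefore hang on few libraries. With only 5 libraries a group, a relation within a group alone was not tested, so whether these relations hold in each group is not known. An r that missed the threshold does not show that a gene is independent of macrophages.

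**Figure D5:**
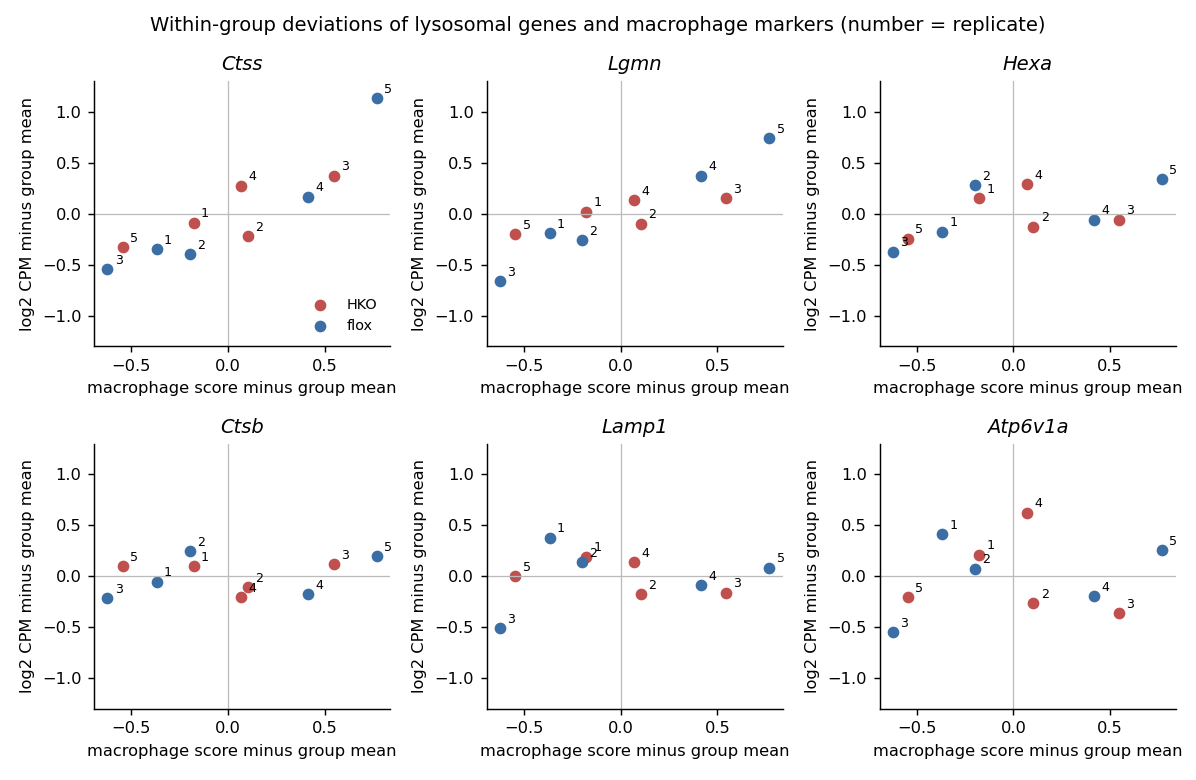
Each library's log2 CPM minus its group mean (y axis) against its macrophage score minus its group mean (x axis) for 6 genes, HKO in red and flox in blue, numbered by replicate. The points of Ctss and Lgmn run upward with the score in the pooled deviations (r of 0.89 and 0.90), while Lamp1 and Atp6v1a show r of 0.05 and 0.12.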

How the data were processed

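The authors deposited raw read counts per gene, whole numbers not divided by library size, per the file headers and values. The labels' protocols name the VAHTS Universal V6 kit for library construction. The submitters' processing notes name mm10 and DESeq2. For the aligner, counter, annotation and strand setting: not given in the sources used here. Genes were matched by the symbols in the table, and promoter windows come from RefSeq on GRCm38.p6.

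HKO was compared with flox on the whole table with edgeR 4.0.16 in R 4.3.3 (TMM, filterByExpr, quasi-likelihood F-test, two-sided, Benjamini-Hochberg, threshold 0.05). Standard errors were obtained as |log2 fold change|/√F. Levels are TMM-scaled CPM, log2 CPM used a prior count of 2, and levels per kilobase use the table's gene length. DESeq2 1.42.0, other scalings and filters, a replicate block and leaving out each library were alternatives. On simulated data for this comparison (14068 genes, 200 changed), the test recovered 45% of 2-fold and 89% of 4-fold changes, with 7 false among 141 calls. Intervals come from the fit. Limits from 3 counts cover counting error only. Library pairs within a group differed by a chi-square of at least 24.6 per degree of freedom, so none looked like a repeated library.

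The members and lists were chosen with earlier results of these data known. Genes named were those called, the TFEB family, the 2 highest per length in each role group and the smallest p where none passed, plus up to 4 called genes per pathway list (else the smallest p) and isoforms of pump subunits. Other members named were chosen after their values were seen. Of 50 genes searched with BLAST 2.17.0 in GENCODE M21 transcripts, 0 matched a transcript of another gene at 95% identity or more across 50% or more of their length. Protein sequences were not used here. The values of 1 called pathway gene are not reported here.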

Additional observations from a re-analysis of the deposited data

Results flagged for a closer look

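In each group of 5 libraries the highest or lowest value was compared with its nearest neighbour, and a gap too large a share of the group's range by Dixon's 95% limit was marked. This marked 7 of the 100 groups checked, where chance marks about 5%. In flox replicate 1, Ctsz was low at 108.6 CPM, with the next library at 188.1, Lamp2 was high at 1161 CPM (next 771.2) and Atp6ap2 was high at 57.7 CPM (next 44.0). In flox replicate 2, Mitf was low at 2.98 CPM (next 4.53), and in flox replicate 4, Mcoln1 was high at 44.7 CPM (next 35.6). In flox replicate 5, Laptm5 was high at 44.9 CPM (next 17.9). In HKO replicate 3, Aif1 was high at 2.44 CPM (next 1.04), below all flox libraries.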

How the results depend on the processing

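Of 663 single-gene values of the 39 tested members, 649 kept their direction where called and their side of the threshold, 11 lost a call, 3 gained one and 0 called values changed sign. Ctss and Hexa passed in all 17 alternatives. With 1 library left out, 2 to 6 members were lower, 0 were higher, 7 to 12 pathway genes were lower, and 289 to 673 genes were called in all, against 561. Members lower numbered 2 without HKO replicate 1, 2, 4 or 5, and genes called numbered 335, 289 and 354 without HKO replicates 1, 4 and 5 and 361 without flox replicate 5. DESeq2 called 1112 genes, 560 of the 561 among them. Acss2 passed in 4 alternatives, with log2 fold changes of -0.70 in DESeq2 (adjusted p = 0.0415), -0.80 with library totals alone (0.0447), -0.70 with no filter on low counts (0.0433) and -0.81 without flox replicate 3 (0.0460). It ran from -0.81 to -0.47 with 1 library left out. Library totals alone moved the median of all genes to -0.10 and of the members to -0.15. With the replicate number as a block, 3 members were lower, Ctsb being lost, and 448 genes were called. Same-numbered libraries did not deviate together (correlations from -0.12 to 0.24), so the numbers were not taken as pairs. In the 250 bases before the start alone, 12 members held the E-box, 5 the long form and 2 the ETS letters, against 13, 6 and 4. The macrophage r was above 0 in 28 members, 31 with a shorter marker list and 29 with a prior count of 0.5. Low counts kept Ctsk out of the test.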
